A study of Saccharomyces cerevisiae with 6 samples.

Results

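INO1 and 8 other genes of inositol and phospholipid synthesis were followed across 6 strand-specific RNA-seq libraries of the budding yeast Saccharomyces cerevisiae. The 9 genes, taken by name from 5795 genes in the table, were INO1, INO2, INO4, OPI1, OPI3, CHO1, CHO2, ITR1 and PSD1. INO1 was chosen by its scaled reads in an earlier look at the same libraries, where they were far lower in proline than in glutamine. The others were named with it as genes of the same pathway. The libraries form 3 groups of 2 biological replicates, as the labels call them. The groups are cells with the gat1-delta genotype (gat1Δ) grown in a medium containing glutamine, gat1Δ cells in a medium containing proline, and dal80-delta cells (dal80Δ) in the glutamine medium. Gat1 is a GATA-family activator, and Dal80 a GATA-family repressor, of genes that let cells live on poor nitrogen sources such as proline. Every library came from a deletion strain. Wild-type cells and dal80Δ cells in proline were not analysed here, so strain and deletion cannot be told apart. The sources used here do not give the strain background, other mutations, the time of harvest or the inositol, choline and zinc content of the media.

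Yeast makes inositol from glucose 6-phosphate through Ino1, or imports it through Itr1, and builds phosphatidylinositol from it. Cho1 makes phosphatidylserine from CDP-diacylglycerol and serine. Psd1 decarboxylates phosphatidylserine to phosphatidylethanolamine in the mitochondrion, and Cho2 and then Opi3 methylate that to phosphatidylcholine. The activators Ino2 and Ino4 bind as a pair to the inositol-responsive element, whose core reads CATGTG. The repressor Opi1 is held at the endoplasmic reticulum by phosphatidic acid and Scs2, and enters the nucleus when inositol lowers the phosphatidic acid level. INO1 is the most strongly regulated gene of this circuit.

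The CATGTG core lay on either strand in the window from 250 bases before to 50 bases after the start codon in 7 of the 9 genes. The same 300-base window held it in 6.86% of 5771 genes. Several of the 9 are textbook targets of Ino2 and Ino4, so the count describes the set. The longer CATGTGAAA, which contains the core, was found before INO1, CHO1 and ITR1 and in 0.381% of all windows. The following 100-base stretches run from 250 to 151 bases before the start codon and are shown because they hold the matches of the genes with the longer form, beside CHO2, which has no match. They are RefSeq sequences of build R64, given 5′ to 3′ on the strand of the gene, with CATGTG, or CACATG where it lies on the other strand, in capitals.
INO1, chr10:136084-136183, minus strand: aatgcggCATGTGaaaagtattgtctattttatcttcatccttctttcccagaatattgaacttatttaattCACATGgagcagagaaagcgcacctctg
ITR1, chr4:1445618-1445717, minus strand: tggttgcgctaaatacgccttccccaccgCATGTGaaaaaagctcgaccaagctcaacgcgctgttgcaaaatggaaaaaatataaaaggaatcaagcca
CHO1, chr5:208625-208724, minus strand: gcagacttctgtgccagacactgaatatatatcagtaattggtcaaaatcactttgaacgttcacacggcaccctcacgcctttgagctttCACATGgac
CHO2, chr7:802190-802289, plus strand: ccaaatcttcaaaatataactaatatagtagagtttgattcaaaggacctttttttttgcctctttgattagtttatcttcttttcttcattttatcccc

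INO1 carried the core at 243 and at 178 bases before its start codon, on opposite strands. Matches at 2 or more places occurred in 0.554% of all windows, and also before PSD1, OPI3 and INO2. The 2 matches of INO2 overlap as CACATGTG, and the match of OPI3 at 212 bases lies inside the coding sequence of the neighbour MOG1. INO4, CHO1 and ITR1 had 1 match each, and CHO2 and OPI1 had none. Only the exact letters CATGTG were searched for the core, so a variant of it in any window would not be counted. GCCGCC, the core of the repressing element URS1, was found before INO1, at 146 bases, and before INO4, and in 5.18% of all windows. GATAAG, a motif bound by GATA factors such as Gat1 and Dal80, was found before INO4 and OPI3 and in 14.8% of all windows. These are matches of letters in a fixed window and were not tested for binding.

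**Figure D1:**
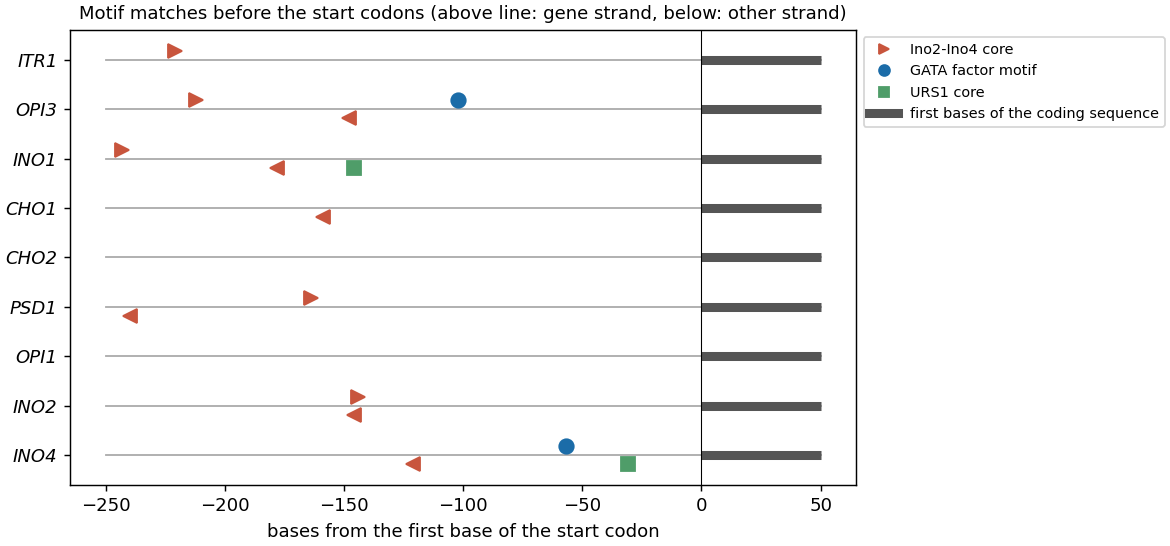
Matches of the Ino2-Ino4 core (triangles, pointing along the strand that reads it), of the GATA factor motif (circles) and of the URS1 core (squares) in the window around the start codon of each gene, by distance in bases from the start codon. A symbol above a line lies on the strand of the gene and one below it on the other strand; 7 of the 9 windows hold the Ino2-Ino4 core.

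The libraries held 17009715 to 34718641 recovered reads. Levels are in scaled reads, a unit in which the authors gave all libraries almost equal gene totals, that of gat1Δ proline replicate 1 being 11822090. GAT1 had 2 or 3 reads in each gat1Δ library against 1603 and 1062 in dal80Δ, as the gat1Δ labels say. DAL80 had 1 and 0 reads in dal80Δ, but also 2 and 1 in gat1Δ glutamine, where it is intact, and 195 and 497 in gat1Δ proline, so in glutamine its reads do not check the dal80Δ label. Mating-type transcripts also differed, both between the strains and between the media within gat1Δ. The sum over 7 a-specific genes was 193 and 171 scaled reads in gat1Δ glutamine, 6517 and 4922 in gat1Δ on proline, and 27468 and 25721 in dal80Δ, while the sum over 4 alpha-specific genes was 36055 and 36270, 84262 and 89581, and 448 and 433. No gene of either list was at 0 in any library. The part of these differences in the results below was not tested.

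INO1 (YJL153C), the synthase for inositol 3-phosphate, lies on chromosome 10 at 134332 to 135933 of build R64, on the minus strand. It had 36663 and 31060 scaled reads in gat1Δ glutamine replicates 1 and 2, and 1503 and 5199 in gat1Δ proline. In dal80Δ glutamine it had 28715 and 43585. The proline libraries were lower than any glutamine library, and by ratio they differed from each other more than the glutamine libraries of either strain did. INO1 took 0.310% and 0.263% of all gene reads in gat1Δ glutamine, 0.0127% and 0.0440% in gat1Δ on proline, and 0.243% and 0.369% in dal80Δ. The mean in gat1Δ was 33862 ± 3962 in glutamine and 3351 ± 2613 in proline (SD, n = 2), a ratio of 10.1 between the means. The limma log2 fold change of proline over glutamine was −3.57 ± 0.47 (SE), and 0.0894% of the genes tested were lower. Since INO1 was chosen for this difference, no p-value is given. Without proline replicate 1 the log2 fold change was −2.69, and without proline replicate 2 it was −4.46. In bulk RNA, fewer cells with a transcript and less of it per cell cannot be told apart.

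The transcript of the main inositol transporter was lower in proline as well, by less. ITR1 (YDR497C, chromosome 4, 1443713 to 1445467, minus strand) had 49167 and 60195 scaled reads in gat1Δ glutamine and 22487 and 41150 in gat1Δ proline. In dal80Δ it had 71166 and 68975. The gat1Δ groups did not overlap, but the second proline library lay nearer to the lower glutamine library than to its own replicate. The log2 fold change of proline over glutamine was −0.84 ± 0.26, and −0.40 without proline replicate 1. Reads of the related transporter ITR2 could be shared with ITR1 where their sequences match. ITR2 had 1464 ± 96.5 scaled reads in gat1Δ glutamine and 1171 ± 51.3 in proline (SD, n = 2), a log2 fold change of −0.31 ± 0.13.

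Of the 9 genes, the 4 in the route from phosphatidylserine to phosphatidylcholine were all lower in proline. PSD2, another phosphatidylserine decarboxylase gene, is not among the 9 and was counted in the list of mitochondrial phospholipids below. In that list none was called lower, or 2 after the TMM rescaling described below. These counts do not give the direction of PSD2 itself. CHO1 (YER026C, chromosome 5, 207644 to 208474, minus strand) had 10254 and 12219 scaled reads in gat1Δ glutamine, 3399 and 6131 in gat1Δ on proline, and 14389 and 15046 in dal80Δ. Its 3 groups did not overlap, and dal80Δ was the highest. After INO1 it had the largest difference of the 9 genes between media, with a ratio of 2.36 between the gat1Δ means and a log2 fold change of −1.29 ± 0.25.

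CHO2 (YGR157W, chromosome 7, 802440 to 805049, plus strand), the methyltransferase that starts the conversion, had 23576 and 22576 scaled reads in gat1Δ glutamine, 9905 and 12982 in gat1Δ on proline, and 24004 and 25869 in dal80Δ. OPI3 (YJR073C, chromosome 10, 572315 to 572935, minus strand), which completes it, had 16091 and 18462, 7058 and 11069, and 17493 and 20873 in the same order. Both were lowest in the proline libraries without overlap. The log2 fold change of proline over glutamine was −1.02 ± 0.16 for CHO2 and −0.96 ± 0.22 for OPI3.

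PSD1 (YNL169C, chromosome 14, 316169 to 317671, minus strand) had 4590 and 4820 scaled reads in gat1Δ glutamine, 2256 and 3266 in gat1Δ on proline, and 4746 and 4985 in dal80Δ. Its log2 fold change of −0.79 ± 0.17 between media was the smallest among the 6 genes that were lower in proline. These 4 genes thus lay between 1.70 and 2.36 times higher in glutamine than in proline by their means in gat1Δ.

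The 3 regulators went the other way, at much lower levels. OPI1 (YHL020C, chromosome 8, 66242 to 67456, minus strand), the repressor, had 649 and 681 scaled reads in gat1Δ glutamine, 1442 and 1516 in gat1Δ on proline, and 643 and 614 in dal80Δ. Its proline libraries were above all others and close to each other, with a log2 fold change of 1.12 ± 0.12 over glutamine. INO2 (YDR123C, chromosome 4, 698554 to 699468, minus strand), the regulated member of the activator pair, had 265 and 249, 507 and 434, and 172 and 199 scaled reads in the same order, a log2 fold change of 0.82 ± 0.14 between media. INO4 (YOL108C, chromosome 15, 111431 to 111886, minus strand), the partner of Ino2, had 82.3 and 87.3, 124 and 189, and 86.9 and 74.9, a log2 fold change of 0.78 ± 0.19. For all 3 the proline libraries were above the gat1Δ glutamine libraries, as they were for 65.9% of all genes. The median gene tested was itself at 0.50 on this scale. With DESeq2 on recovered reads INO2 was at 0.31 and INO4 at 0.33, and neither passed an adjusted p threshold of 0.05, while OPI1 at 0.59 did.

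**Figure D2:**
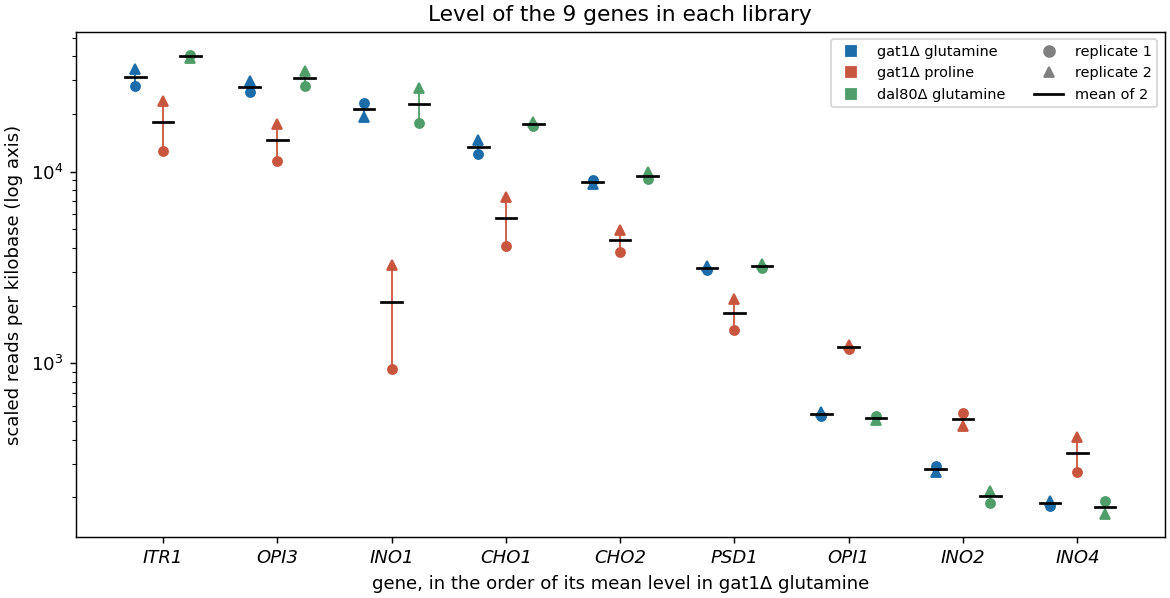
Scaled reads per kilobase of the 9 genes in each library on a log axis, with replicate 1 as circles, replicate 2 as triangles and the mean of 2 as a black bar, coloured by group. The 6 enzyme and transporter genes are lowest in gat1Δ proline and the 3 regulators highest, with INO1 spread most, from 938 to 3245 between the proline replicates.

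Per length, the order of the genes was alike in the glutamine libraries of both strains. In gat1Δ glutamine ITR1 had 31157 ± 4443 scaled reads per kilobase, OPI3 27821 ± 2700, INO1 21137 ± 2473, CHO1 13521 ± 1672, CHO2 8841 ± 271, PSD1 3130 ± 108, OPI1 547 ± 18.7, INO2 281 ± 12.4 and INO4 186 ± 7.81 (SD, n = 2). ITR1 and OPI3 overlapped, and every other neighbour in the order was separate. The median gene of the table was at 264, so only INO4 lay below it. In dal80Δ the order was the same, with INO1 and CHO1 overlapping and INO2 and INO4 overlapping.

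In gat1Δ proline INO1 stood at rank 5 of the 9, at 2092 ± 1631 scaled reads per kilobase (SD, n = 2), where it overlapped PSD1 at 1837 ± 475. The order of the other 8 genes stayed as in glutamine. ITR1 and OPI3 overlapped there too, as did CHO1 and CHO2. Together the 9 genes took 1.20% and 1.27% of gene reads in gat1Δ glutamine, 0.412% and 0.693% in gat1Δ on proline, and 1.37% and 1.52% in dal80Δ.

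The proline replicates differed for these genes more than for most. INO1 was 3.46 times higher in replicate 2 than in replicate 1, a larger ratio than in 99.8% of the genes tested. ITR1 was 1.83 times, CHO1 1.80, OPI3 1.57, INO4 1.52, PSD1 1.45 and CHO2 1.31 times higher there, each above at least 93.9% of genes, while the median gene was at −0.06 on the log2 scale. OPI1 at 1.05 and INO2 at 0.855 did not share this. In dal80Δ INO1 was 1.52 times higher in replicate 2, above 97.8% of genes, whereas in gat1Δ glutamine its ratio was 0.847. All the genes that were lower in proline were thus higher in proline replicate 2, nearer to their glutamine level. INO4, which was higher in proline, was also higher in that library, farther from its glutamine level. This rests on the 2 proline libraries alone, and its cause was not tested.

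**Figure D3:**
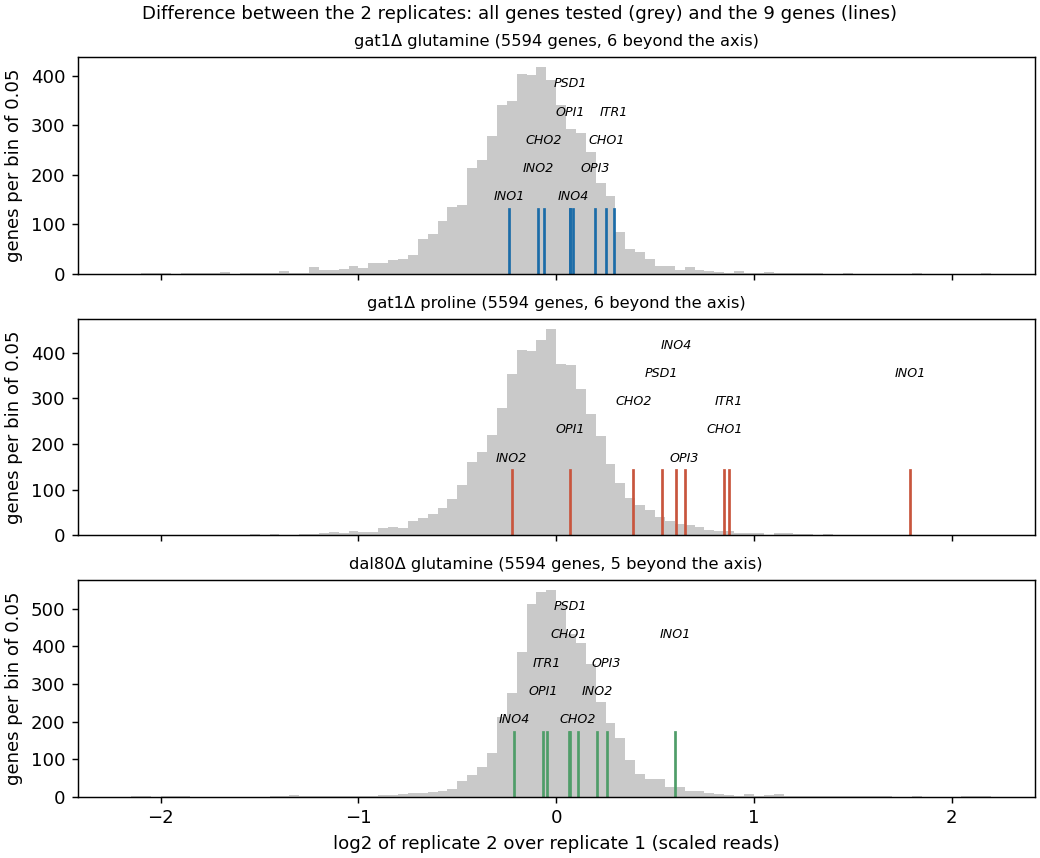
Log2 ratio of replicate 2 over replicate 1 for all genes tested (grey histogram, genes per bin of 0.05) and for the 9 genes (coloured lines), in each group. In gat1Δ proline INO1 lies at 1.79 and 7 of the 9 genes lie right of most others, while in gat1Δ glutamine the 9 ratios run from 0.847 to 1.22 times.

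Set against all genes, the media difference of the 9 genes has to be read from a shifted middle. The median of the 5594 genes tested was 0.50 on the log2 scale for proline over glutamine, and 0.06 after rescaling by trimmed mean of M-values (TMM), which assumes most genes unchanged. Relative to that median INO1 was at −4.07, CHO1 at −1.79, CHO2 at −1.52, OPI3 at −1.46, ITR1 at −1.34 and PSD1 at −1.28. OPI1 was at 0.62, INO2 at 0.32 and INO4 at 0.28. By limma with an adjusted p threshold of 0.05, 6 of the 9 were past it as lower, where 15.1% of all genes were called lower, and 3 as higher, where 56.5% were called higher. With TMM the 6 were still past the threshold, and OPI1 and INO2 but not INO4. Of all genes, 71.6% were called, 3162 higher and 844 lower, or 1898 and 1666 with TMM. The groups did not overlap for any of the 9, with 6 lower (20.6% of all genes) and 3 higher (65.9%), or 86.5% of all genes in either direction. Since this comparison was used in choosing the genes, these counts describe them and test nothing.

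**Figure D4:**
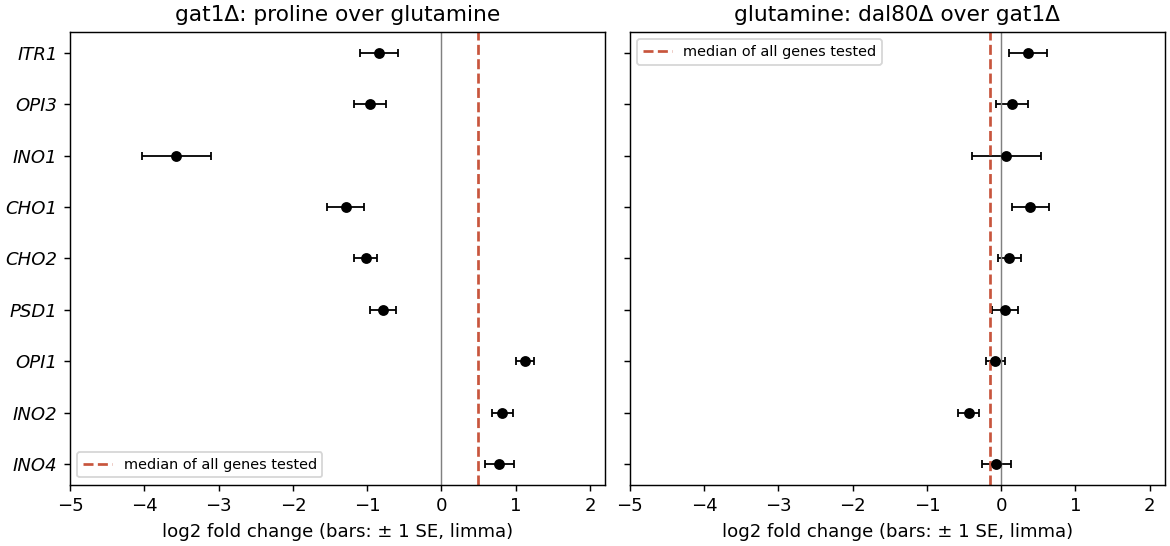
Log2 fold change of each of the 9 genes, with bars of ± 1 SE from limma, for proline over glutamine in gat1Δ (left) and dal80Δ over gat1Δ in glutamine (right); the dashed line is the median of all genes tested. On the left INO1 stands at −3.57, 5 further genes lie between −1.29 and −0.79 and the 3 regulators lie above 0; on the right all lie between −0.43 and 0.39.

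Around this core, 77 other genes of lipid metabolism and its regulation were read from 8 lists. In proline 31 rose, 19 fell and 27 did not pass, with a median log2 fold change of 0.14. Of all genes tested, 56.5% were called higher and 15.1% lower, and every list count between media below has to be read beside these shares. With TMM 16 rose and 35 fell, beside 1898 and 1666 of the 5594 genes tested. The list of fatty acid synthesis had the lowest median of the 8, −0.80, with 6 of its 9 genes lower and 2 higher, and 6 lower and 1 higher with TMM. FAS1, the beta subunit of fatty acid synthase, fell from 109619 ± 729 to 46148 ± 10027 scaled reads (SD, n = 2), a log2 fold change of −1.26 ± 0.16. ACC1, the acetyl-CoA carboxylase that commits carbon to fatty acids, was at −1.22 ± 0.17 (adjusted p = 0.000249). HFA1, its mitochondrial counterpart, rose by 1.16 ± 0.15. OLE1, the fatty acid desaturase, was at 0.53 ± 0.16 and at 0.03 with TMM.

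The list of mitochondrial phospholipid genes, which also holds the non-mitochondrial decarboxylase gene PSD2, had the highest median, 0.92. Of its 9 genes 7 were higher and none lower, beside 56.5% and 15.1% of all genes, or 5 higher and 2 lower with TMM. CLD1, the cardiolipin deacylase, rose from 138 ± 5.58 to 890 ± 251 scaled reads (SD, n = 2), a log2 fold change of 2.42 ± 0.19. UPS2, which carries phosphatidylserine between the mitochondrial membranes, rose by 2.38 ± 0.15 (adjusted p = 3.99e-06). PSD1, the decarboxylase that uses that phosphatidylserine, was lower in the same libraries, as given above.

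In the Kennedy pathway, which makes phosphatidylcholine and phosphatidylethanolamine from free choline and ethanolamine, 1 of 7 genes rose and 2 fell, or 1 and 5 with TMM. PCT1, its rate-limiting enzyme, rose by 2.15 ± 0.20 on the log2 scale, from 254 ± 39.6 to 1243 ± 356 scaled reads (SD, n = 2). The last enzymes of the pathway, EPT1 at −1.22 ± 0.17 and CPT1 at −0.85 ± 0.14, fell. Among 14 genes of phosphatidate and diacylglycerol 5 rose and 5 fell, or 2 and 7 with TMM. PAH1, the phosphatidate phosphatase, rose by 0.86 ± 0.13, and TAM41, the mitochondrial CDP-diacylglycerol synthase, by 1.16 ± 0.15. LPP1, a lipid phosphate phosphatase, was at −1.19 ± 0.14, and ALE1, a lysophospholipid acyltransferase, at −0.97 ± 0.14.

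Inositol supply and recycling held 8 genes, of which 2 rose and 2 fell, or 1 and 6 with TMM. INM1, which removes the phosphate from the product of Ino1, rose by 1.43 ± 0.23 on the log2 scale, from 373 ± 13.3 to 1088 ± 440 scaled reads (SD, n = 2). PLB2, a phospholipase B, fell to −1.63 ± 0.15. GIT1, the glycerophosphoinositol transporter, was at −0.40 ± 0.14, and PLB1 was at 0.33 ± 0.13 but at −0.17 with TMM. Of 12 phosphoinositide and inositol phosphate enzymes 8 rose and 1 fell, beside 56.5% and 15.1% of all genes, or 4 and 4 with TMM. LSB6, a phosphatidylinositol 4-kinase, was at 1.29 ± 0.14, IPK1, an inositol phosphate kinase, at 1.00 ± 0.16, and SAC1, the phosphatidylinositol 4-phosphate phosphatase, at −0.65 ± 0.14. Of 7 inositol sphingolipid genes 1 rose and 2 fell, or none and 2 with TMM. KEI1, a subunit of inositol phosphorylceramide synthase, was at −1.08 ± 0.15 and CSG2 at −0.48 ± 0.13. CSH1, a mannosyltransferase of that route, was at 0.43 ± 0.14 but at −0.04 with TMM.

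Among 11 chromatin and signalling regulators of INO1, 5 rose and 1 fell, beside 56.5% and 15.1% of all genes, or 2 and 3 with TMM. HAC1, the transcription factor of the unfolded protein response, was at 0.99 ± 0.15 on the log2 scale. The corepressor subunits CYC8 and TUP1 were at 0.88 ± 0.15 and −0.48 ± 0.13. The unfolded protein response is known to act on INO1 as well, and of 10 of its target genes none rose and 7 fell, with a median of −1.27, or 10 fell with TMM. KAR2, the chaperone of the endoplasmic reticulum, fell from 22025 ± 153 to 3689 ± 609 scaled reads (SD, n = 2), and PDI1, a disulfide isomerase there, was at −1.66 ± 0.14. The sum over these 10 genes was 48922 and 50529 scaled reads in gat1Δ glutamine, 13573 and 14922 in gat1Δ on proline, and 38732 and 48911 in dal80Δ. Its part in the INO1 level was not tested.

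**Figure D5:**
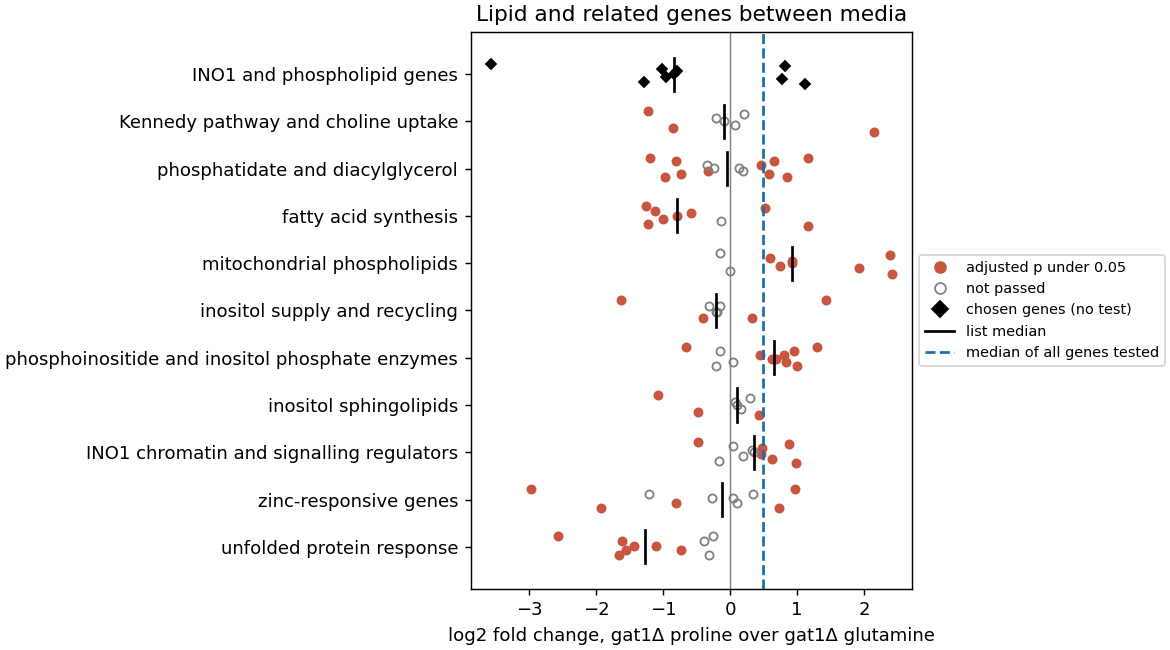
Log2 fold change of proline over glutamine in gat1Δ for the 9 genes (black diamonds, no test) and for the genes of 10 further lists, filled where the adjusted p was under 0.05 and open where not, with the median of each list as a black bar and the median of all genes tested as a dashed line. The medians run from −1.27 for the unfolded protein response to 0.92 for mitochondrial phospholipids, with the 9 genes at −0.84.

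The core motif was not restricted to genes that were lower in proline. Among all genes tested, 372 had CATGTG in their window, of which 19.1% fell and 58.6% rose, and 5199 had none, of which 14.9% fell and 56.2% rose. Among the 77 other lipid genes, 11 windows held it, and 4 of those genes fell and 3 rose. Of the 9 genes themselves, CHO2 was lower in proline with no match, and INO2 and INO4 were higher with one.

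Between the strains in glutamine, no difference of these genes passed the test. None of the 9 was past the adjusted p threshold in dal80Δ against gat1Δ by limma, edgeR or DESeq2, where limma called 5.45% of all genes, 3.97% higher and 1.48% lower. In numbers these were 222 and 83, or 344 and 51 with TMM. At an unadjusted p under 0.05, limma had 1 of the 9 (INO2), edgeR 0 and DESeq2 2 (CHO1 and ITR1). The comparison uses the same gat1Δ glutamine libraries as the comparison of media, so the 2 sets of values are not independent. For INO1 the log2 fold change of dal80Δ over gat1Δ was 0.07 ± 0.47, with a 95% interval from −0.99 to 1.12, and its groups overlapped. No p-value is given for it, since the gat1Δ glutamine libraries took part in its choice.

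ITR1 was at 0.36 ± 0.26 (adjusted p = 0.356, 95% interval −0.21 to 0.94), and CHO1 at 0.39 ± 0.25 (adjusted p = 0.303, interval −0.16 to 0.95). For both and for CHO2, at 0.11 ± 0.16 (adjusted p = 0.654), both dal80Δ libraries lay above both gat1Δ libraries, as they did for 17.4% of all genes. OPI3, at 0.15 ± 0.22, and PSD1, at 0.05 ± 0.17, had overlapping groups and adjusted p-values of 0.664 and 0.870.

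Of the regulators, INO2 was at −0.43 ± 0.14 on the log2 scale for dal80Δ over gat1Δ (adjusted p = 0.104, 95% interval −0.76 to −0.11). Its dal80Δ libraries lay below both gat1Δ libraries, and so did those of OPI1, at −0.08 ± 0.12 (adjusted p = 0.689), as for 46.4% of all genes. In either direction the groups of 5 of the 9 did not overlap, beside 63.9% of all genes. INO4, at −0.06 ± 0.19 (adjusted p = 0.843), had overlapping groups. With TMM the signs of OPI1 and INO4 turned, to 0.07 and 0.08. The median of all genes was −0.15 here, and −0.01 with TMM, and 8 of the 9 genes lay above it, with INO2 below.

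Of the 77 other lipid genes, 2 passed in dal80Δ, both higher, beside 3.97% of all genes called higher. The count was 0 when any 1 of the 4 glutamine libraries was left out, and 0 with the replicate block or at a threshold of 0.01. GPT2, a glycerol 3-phosphate acyltransferase that starts glycerolipid synthesis, had 1170 ± 18.5 scaled reads in gat1Δ and 1820 ± 143 in dal80Δ (SD, n = 2), a log2 fold change of 0.61 ± 0.13. PLB1, a phospholipase B that releases glycerophosphoinositol and related products, was at 0.57 ± 0.13 (adjusted p = 0.0368). No gene of the unfolded protein response list was called, with a median of −0.44. Of the zinc-responsive genes 4 of 10 fell, with ZPS1, a cell wall protein of zinc-poor cells, at −5.18 ± 0.29 and ZRT1, the high-affinity zinc transporter, at −4.97 ± 0.57. In proline 2 of the 10 had risen and 3 fallen, or 1 and 6 with TMM. ZPS1 was at −2.97 ± 0.29, and ZAP1, the zinc regulator, at 0.73 ± 0.21, or 0.26 with TMM, where it did not pass. The part of zinc in the levels of the 9 genes was not tested. In dal80Δ over gat1Δ the a-specific list stood at a median of 6.83, with 7 of 7 called higher, and the alpha-specific list at −6.75, with 4 of 4 called lower. In gat1Δ proline over glutamine the medians were 4.68 and 0.51. There 7 of 7 and 2 of 4 were called higher, beside 56.5% of all genes.

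By Pearson correlation of log2 densities over the 6 libraries among 5217 genes with a mean of at least 5 CPM (reads scaled to a common total), the genes most like INO1 were IFA38 (r = 0.996), a reductase of very long chain fatty acid synthesis, PEX31 (0.996), a peroxisomal membrane protein, CIS3 (0.995), a cell wall protein, YLR050C (0.995) and CHO2 (0.994). The likeness is one of pattern and not of size, since IFA38 was at −0.64 and CIS3 at −2.04 between media. Those most like ITR1 were ARE2 (0.999), a sterol acyltransferase, MCK1 (0.989), GPI16 (0.987), FAA1 (0.986), a fatty acyl-CoA synthetase, and CHO1 (0.986). Those most like CHO1 were ADO1 (0.996), the adenosine kinase, ALG12 (0.995), YOL013W-A (0.994), GEF1 (0.994) and ECM33 (0.993). All 6 points share the difference between media and the 3 groups, so these values rank genes and test nothing.

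The genes beside INO1 on chromosome 10 did not share its difference. VPS35, whose coding sequence lies 396 bases past the end of INO1, had 991 ± 197 scaled reads in gat1Δ glutamine and 1462 ± 127 in proline (SD, n = 2), a log2 fold change of 0.54 ± 0.16 (adjusted p = 0.0153). SNA3, 438 bases before the start of INO1, was at 0.23 ± 0.13 (adjusted p = 0.146).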

How the data were processed

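Total RNA depleted of ribosomal RNA was sequenced as stranded paired-end libraries, per the labels' protocols, and TopHat and build R64 are named in the submitters' processing notes. The sources used here do not give its version, the counting program or the treatment of reads that match several places. For each gene and library the authors deposited a density signal and a scaled read signal, per the file headers. In gat1Δ proline replicate 1 the deposited values are whole read counts. In the other libraries they are whole multiples of 1 step, so whole reads were recovered for 100% of values within 0.01 reads. A further 6 columns of group sums were not used. Of the 9 genes, all had the R64 annotation's start and end.

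A gene was kept if 2 or more libraries had 10 or more scaled reads. The fit was made by limma 3.58.1 (R 4.3.3) on log2(density + 0.0229), the 5th percentile of positive densities, with all 6 libraries in a 3-group fit (3 residual degrees of freedom) and Benjamini-Hochberg adjustment over all 5594 genes. All log2 fold changes are on this scale, which understates the change of low genes, and ± after them is the SE. The test was run on simulated data with 200 changed genes, up or down at random. Far more genes were called between media, so the simulation does not resemble that comparison. Between replicates the chi-square over genes was 41.6 to 70.8 per degree of freedom, so none is a library deposited again. The edgeR 4.0.16 quasi-likelihood test and DESeq2 1.42.0 on recovered reads, other filters, pseudocounts and scalings, a replicate block and leaving out each library were alternatives. The 95% intervals are of the difference between group means, from the limma SE, whose variance borrows from all genes tested. They rest on the variation between these 6 libraries alone. A further gene of the set is not reported here. The genes and lists were chosen with earlier results of these data known. Named were the 9 genes, up to 2 genes each way per list with the largest change past the threshold, the 5 most alike of INO1, ITR1 and CHO1, and the neighbours of INO1. ITR2 was named beside them as the relative of ITR1.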

Additional observations from a re-analysis of the deposited data

How the results depend on the processing

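The 2 replicates a group and the 3 residual degrees of freedom limit every test here, and the authors' scaling sets the middle of each comparison. INO1 was chosen for its difference between media, and every alternative reuses these libraries. The counts of the 9 genes between media therefore describe them and test nothing. Between media none of the 9 genes changed direction under any alternative, and 7 to 9 of them passed the threshold, beside 71.6% of all genes in the main fit. The exceptions were INO2 with RLE and DESeq2, INO4 with TMM, RLE, edgeR and DESeq2, and ITR1 without gat1Δ glutamine replicate 2, without gat1Δ proline replicate 1 or at a threshold of 0.01. The count over all genes, 4006, ranged from 3292 to 4110, and that of the other lipid genes, 50, from 41 to 55.

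Between strains none of the 9 genes passed under any alternative. With 1 library left out INO1 ranged from −0.233 to 0.369 and was below 0 without gat1Δ glutamine replicate 2 (−0.0514) and without dal80Δ replicate 2. INO4 ranged from −0.158 to 0.0310, the highest without dal80Δ replicate 2, and turned to 0.0775 with TMM, 0.0705 with RLE, 0.0825 with edgeR and 0.0775 with DESeq2. OPI1 turned to 0.0742, 0.0666, 0.0734 and 0.0668 in that order. The count over all genes was 305, 523 with DESeq2, 115 at a threshold of 0.01 and 110 to 369 with 1 library left out. The 2 other lipid genes were 0 at 0.01, and 0 to 2 with 1 library left out. Apart from the scalings, the cause was not tested.

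Whether the replicate numbers pair the samples is not known here. Deviations of the same number had r of 0.03, −0.19 and −0.06 between groups. These values show no strong effect shared by libraries of the same number, but cannot settle how the cultures were handled. With the replicate block the count between strains was 208 over all genes and 0 of the other lipid genes. With the dal80Δ numbers crossed, chosen after seeing the data, it was 409 over all genes.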
